A study of Mus musculus with 24 samples.

Results

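The 10 genes described here encode proteins of the adhesion between cells and the basal lamina in the satellite cell niche. They are the integrin subunits Itga7 and Itgb1, the syndecans Sdc1 to Sdc4, the dystroglycan gene Dag1, and the laminin chains Lama2, Lamb2 and Lamc1. They were taken as the rows of the deposited count table that carry these symbols, 10 of 24537 genes, and all 10 passed the filter on low counts. In muscle, laminin containing the alpha 2 chain is the main laminin of the basal lamina around the fiber, and the fiber holds it through 2 kinds of receptor, the alpha 7 beta 1 integrin and dystroglycan. Dystroglycan links the lamina to dystrophin inside the fiber. Syndecans are transmembrane proteoglycans that bind matrix proteins and growth factors through heparan sulfate chains, and satellite cells, the stem cells between fiber and lamina, carry Sdc3 and Sdc4.

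The study asked how Klf4, c-Myc, Sox2 and Oct-3/4, together called OSKM and used for reprogramming, when switched on in myofibers, change the surroundings of satellite cells. All mice were 2 months old and drank doxycycline (Dox) at 1 mg/ml for 2.5 days, for 5.5 days or for 8.5 days. Acta1-Cre+/4Fhet mice (Cre+) were compared with Acta1-Cre-/4Fhet mice (Cre-), and both genotypes carried a heterozygous Dox-inducible OSKM cassette and a heterozygous Cre-dependent transactivator. RNA came from whole extensor digitorum longus muscle (EDL, a fast-twitch muscle) or soleus (SOL, a slow-twitch muscle), with 2 libraries in each of 12 groups and 24 in all. The Acta1 promoter confines Cre to skeletal myofibers, but the libraries hold RNA of every cell type in the muscle, so fewer cells of a type and less RNA per cell cannot be told apart. Per the methods, libraries that did not overexpress OSKM were dropped by the authors, and the methods do not name them. The 5.5 day libraries are therefore given apart from the others here. They also singled out Itga7 and Sdc4 from these same samples, so the values of those 2 genes are not independent evidence.

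Total counts per library lay between 36088781 and 54679082, and the members were counted between 142 and 39050 times in a library, so all were measured well above the limit of detection. Pou5f1, the mouse gene of Oct-3/4 and a check of the cassette, was at 15.3 and 58.5 FPKM (counts scaled to exon length and library size) in the EDL Cre+ libraries of 2.5 days and at 66.4 and 53.6 FPKM in those of 8.5 days. It reached 1.07 and 29.4 FPKM in the EDL Cre+ libraries of 5.5 days, and between 4.54 and 11.4 FPKM in the SOL Cre+ libraries of 2.5 and 8.5 days. No Cre- library held more than 5 counts of Pou5f1. Myh4 was at 2235 FPKM or more in every EDL library and at 532 FPKM or less in every SOL library, as the labels of the muscles say. Of 6 fast myofiber genes, 3 fell in EDL Cre+ muscle at 2.5 days (Myh1, Tnnt3 and Tnni2) and 2 at 8.5 days. Their summed level was 21778 and 28167 FPKM in Cre+ against 46662 and 52241 FPKM in Cre- libraries at 2.5 days.

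The sequences before the start sites are shown for members that rose together and for members that did not, to see whether a short motif is shared. RefSeq windows on GRCm38.p6, the assembly named mm10 by the authors, matched 7 of the 10 members at the start site of the deposited table. Itga7, Sdc2 and Lamc1 were not matched. Below are the 250 bases before the start of Sdc4 (chr2:164443189-164443438, minus strand) and Itgb1 (chr8:128685404-128685653, plus strand), which rose in EDL on both days, of Sdc3 (chr4:130792287-130792536, plus strand), which fell at 2.5 days, and of Sdc1 (chr12:8771146-8771395, plus strand), which passed no test in any Cre+ against Cre- comparison. Each is written 5′ to 3′ in the direction of the gene, with matches to the searched motifs in capitals.
Sdc4: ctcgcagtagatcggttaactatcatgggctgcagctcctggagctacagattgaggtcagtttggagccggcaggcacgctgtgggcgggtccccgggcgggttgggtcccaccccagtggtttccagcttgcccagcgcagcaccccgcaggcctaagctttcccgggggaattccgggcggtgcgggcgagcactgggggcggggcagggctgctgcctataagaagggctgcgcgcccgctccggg
Itgb1: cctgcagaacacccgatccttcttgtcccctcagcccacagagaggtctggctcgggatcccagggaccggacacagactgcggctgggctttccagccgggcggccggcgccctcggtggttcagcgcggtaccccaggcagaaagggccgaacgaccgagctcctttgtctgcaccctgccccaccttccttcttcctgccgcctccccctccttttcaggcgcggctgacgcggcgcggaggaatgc
Sdc3: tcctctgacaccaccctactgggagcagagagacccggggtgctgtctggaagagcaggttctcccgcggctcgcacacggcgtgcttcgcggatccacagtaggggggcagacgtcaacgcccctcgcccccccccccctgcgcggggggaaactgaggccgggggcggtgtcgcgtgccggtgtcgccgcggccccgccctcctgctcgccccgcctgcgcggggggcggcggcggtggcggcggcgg
Sdc1: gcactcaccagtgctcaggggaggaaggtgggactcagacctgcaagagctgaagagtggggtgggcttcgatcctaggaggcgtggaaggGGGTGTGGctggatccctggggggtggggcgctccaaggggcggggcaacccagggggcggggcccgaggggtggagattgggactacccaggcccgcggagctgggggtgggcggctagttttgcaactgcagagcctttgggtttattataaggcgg
The motifs were CACGTG (E-box), ATTTGCAT (octamer), ACAATGG (Sox) and GGGTGTGG (Klf), searched on both strands. One match was found in the 7 windows, the Klf motif of Sdc1, whose first base lies 159 bases before the start. Among all 32851 windows of the same length, 6.02% held the E-box, 1.6% the octamer, 3.02% the Sox motif and 3.2% the Klf motif. Windows of Sdc4 and Itgb1 were 68% G and C, that of Sdc3 76.4% and that of Lama2 47.2%, with a median of 52.4% over all windows.

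In the 6 Cre- EDL libraries the receptors and the laminin beta chain were the most abundant members per length of exon. Dag1 had a median of 62.8 FPKM (59.5 to 67.7), Itgb1 of 59.2 FPKM (50.5 to 70.1), Lamb2 of 49.2 FPKM (35.8 to 55.7) and Itga7 of 35.6 FPKM (31.5 to 40.4). Lamc1 followed at 20.3 FPKM (12.8 to 23.4), Sdc4 at 12.6 FPKM, Sdc3 at 9.72 FPKM, Sdc2 at 8.60 FPKM, Lama2 at 6.97 FPKM and Sdc1 at 3.30 FPKM. Each neighbouring pair in this order overlapped over the 6 libraries except Itga7 and Lamc1. In SOL, Dag1 (75.5 FPKM) was again first, Sdc4 had moved above Lamc1 at a median of 26.3 FPKM (20.1 to 47.7), and every neighbouring pair overlapped.

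**Figure D1:**
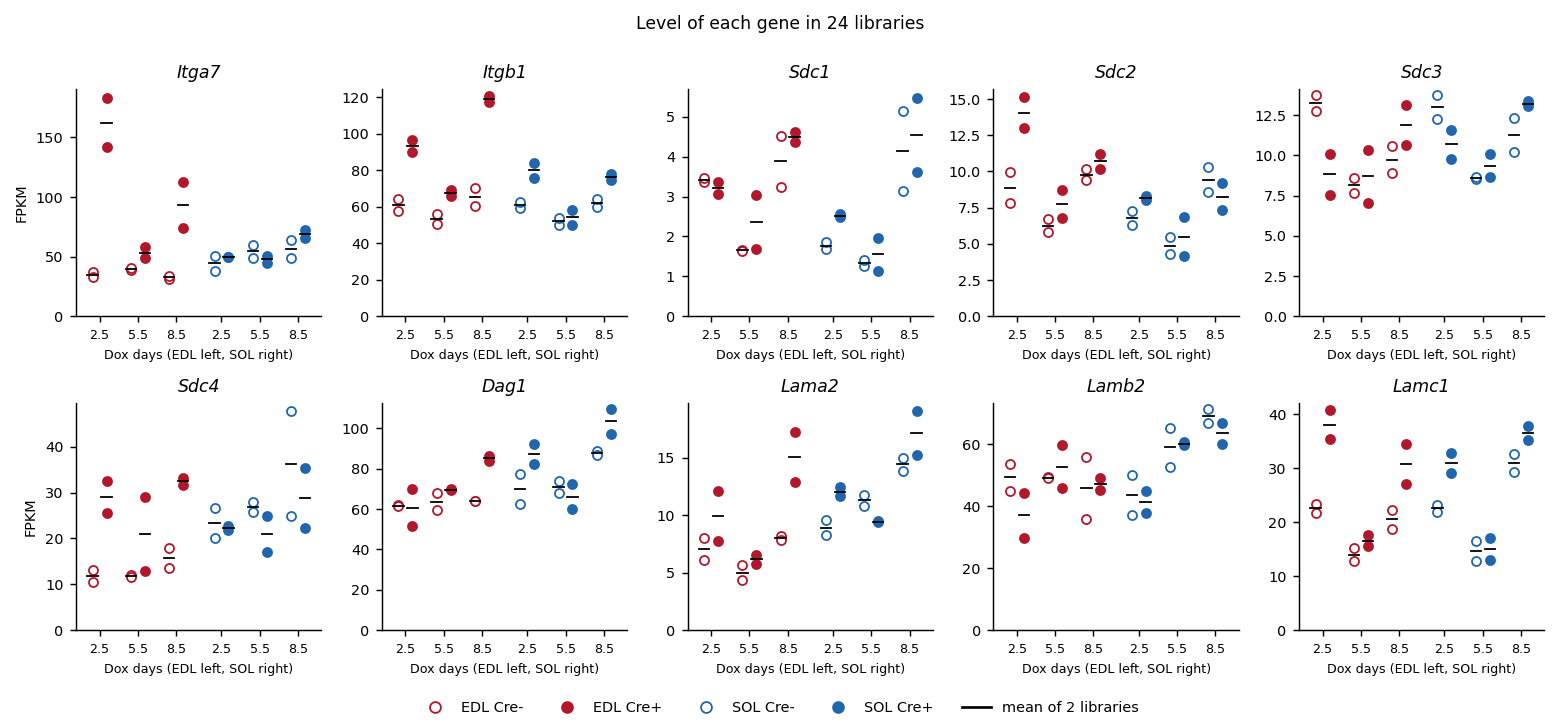
Level of each of the 10 genes in FPKM (linear axis) in every library, by days of Dox, with EDL on the left and SOL on the right of each panel, Cre- open, Cre+ filled, and a bar at the mean of the 2 libraries of a group. Itga7 in EDL stood at 142 and 183 FPKM in Cre+ libraries of 2.5 days, against 37.4 and 32.8 FPKM in the Cre- libraries.

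The first question was what OSKM expression in fast muscle did to these genes. After 2.5 days in EDL, 5 of the 10 members rose (Itga7, Sdc4, Lamc1, Sdc2 and Itgb1) and 1 fell (Sdc3), where a call needed a log2 fold change beyond 0.5 in size and an edgeR quasi-likelihood p that stayed under 0.05 once adjusted by Benjamini-Hochberg over the 15372 genes tested. Over all genes tested, 24% were called, 13.8% upward and 10.2% downward. After 8.5 days, 5 members rose (Itga7, Sdc4, Lama2, Itgb1 and Lamc1) and 0 fell, where 14.1% of all genes were called, 7.63% upward and 6.50% downward. The median log2 fold change of the 10 members was 0.55 at 2.5 days and 0.52 at 8.5 days, beside -0.05 and -0.02 over all genes. Scaling by library size alone moved the median of all genes to 0.28 at 2.5 days and 0.16 at 8.5 days and gave 6 members up and 0 down on each day. Over all genes that scaling gave 4207 up and 610 down at 2.5 days, in place of 2118 and 1566, and 1956 up and 542 down at 8.5 days, in place of 1173 and 999. Without the first Cre- or the first Cre+ library of 8.5 days, only Itga7 and Itgb1 of the members remained called there, and fewer of all genes were called as well.

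Itga7, the muscle laminin-binding integrin alpha subunit (chromosome 10, 128933813 to 128958284, plus strand), changed most. In EDL at 2.5 days it stood at 142 and 183 FPKM in Cre+ muscle and at 37.4 and 32.8 FPKM in Cre- muscle. The groups were far apart, and the fold was 4.61 (log2 fold change 2.20, SE 0.22, edgeR adjusted p = 3.34e-05). At 8.5 days the Cre+ libraries held 113 and 74.0 FPKM and the Cre- libraries 31.5 and 33.8 FPKM. The groups again did not overlap, the Cre+ libraries differed from each other more than the Cre- ones, and the fold was 2.90 (log2 fold change 1.53, SE 0.21, edgeR adjusted p = 5.42e-04). Leaving out any 1 library of the comparison left the log2 fold change between 2.02 and 2.37 at 2.5 days and between 1.21 and 1.80 at 8.5 days, always called. The change at 8.5 days was smaller than that at 2.5 days by a log2 difference of -0.67 (SE 0.29), which did not pass after adjustment (edgeR adjusted p = 0.494).

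Itgb1, the beta subunit that Itga7 and many other alpha subunits need, rose less. At 2.5 days in EDL it stood at 96.5 and 89.9 FPKM in Cre+ and at 64.5 and 57.8 FPKM in Cre- libraries, a fold of 1.52 (edgeR adjusted p = 0.00285). At 8.5 days it stood at 121 and 118 FPKM against 70.1 and 60.7 FPKM, a fold of 1.85 (edgeR adjusted p = 5.33e-04). Both differences exceeded the spread within the groups and were called in every fit that left out 1 library. The ratio of Itga7 to Itgb1 FPKM within a library was 1.47 and 2.03 in EDL Cre+ muscle at 2.5 days, against 0.580 and 0.567 in Cre- muscle. At 8.5 days it was 0.932 and 0.629 in Cre+ and 0.450 and 0.558 in Cre- libraries. The ratio was thus above 1 in both EDL Cre+ libraries of 2.5 days and below 1 in the other 10 EDL libraries.

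Among the syndecans, Sdc4 rose and Sdc3 fell early. Sdc4 (chromosome 2, 164424247 to 164443188, minus strand) was at 25.6 and 32.5 FPKM in EDL Cre+ and at 10.5 and 13.2 FPKM in Cre- muscle at 2.5 days, a fold of 2.44 (log2 fold change 1.29, SE 0.29, edgeR adjusted p = 0.00576). At 8.5 days it was at 31.7 and 33.3 FPKM against 13.5 and 17.9 FPKM, a fold of 2.10 (log2 fold change 1.07, SE 0.29, edgeR adjusted p = 0.0246). The groups did not overlap on either day, but the call was lost without the first Cre- or the second Cre+ library at 2.5 days, and without the first Cre- or either Cre+ library at 8.5 days, while the log2 fold change stayed between 0.89 and 1.46. Sdc3 (chromosome 4, 130792537 to 130826318, plus strand), the other syndecan known from satellite cells, stood at 10.1 and 7.54 FPKM in EDL Cre+ and at 12.7 and 13.8 FPKM in Cre- muscle at 2.5 days. Its groups did not overlap and its log2 level fell by 0.59 (SE 0.17, edgeR adjusted p = 0.0177), but with library size alone as the scale it was -0.27 and was not called. The call was also lost without either Cre- library or without the second Cre+ library (-0.39). At 8.5 days Sdc3 was at 13.2 and 10.6 FPKM in Cre+ against 8.87 and 10.6 FPKM in Cre- libraries, and the difference of 0.31 on the log2 scale did not pass (edgeR adjusted p = 0.231).

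Sdc3 was also the member whose EDL change differed most between the days. Its change at 8.5 days exceeded that at 2.5 days by 0.91 on the log2 scale (SE 0.23, unadjusted p = 0.00198, edgeR adjusted p = 0.256). None of the 10 members was called in this comparison of days by edgeR, where 0% of all genes were called. Of the members 3 had an unadjusted p under 0.05, as had 1469 of the 15372 genes tested. DESeq2 called 1 member, Sdc3, with 0.88 (adjusted p = 0.0477), and 143 of all genes. Without the first Cre+ library of 2.5 days Sdc3 was at 1.14 in edgeR and was called, in a fit that called more of all genes as well.

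Sdc2 is known mainly from mesenchymal and Sdc1 from epithelial cells. Sdc2 stood at 13.0 and 15.1 FPKM in EDL Cre+ and 9.94 and 7.79 FPKM in Cre- muscle at 2.5 days and rose by 0.66 on the log2 scale (SE 0.15, edgeR adjusted p = 0.00711), a call lost without the second library of either genotype. At 8.5 days it was at 11.2 and 10.2 FPKM against 9.40 and 10.1 FPKM, a difference of 0.15 (SE 0.15). Sdc1 was the least abundant member, with 142 to 855 counts per library, and its log2 fold changes of -0.09 and 0.23 in EDL did not pass the test.

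As a share of the summed FPKM of the 4 syndecans, Sdc4 took 49.2% and 55.8% in EDL Cre+ libraries of 2.5 days and 28.8% and 34.4% in the Cre- ones. Sdc3 took 19.4% and 12.9% in the Cre+ libraries and 34.8% and 36.1% in the Cre- ones, so the leading syndecan was Sdc4 in the former and Sdc3 in the latter. In the second of these Cre- libraries the 2 were close, at 36.1% for Sdc3 and 34.4% for Sdc4. At 8.5 days Sdc4 took 52.3% and 56.9% in Cre+ against 38.6% and 41.5% in Cre- EDL libraries, and so led in both genotypes. It also led in the Cre- EDL libraries of 5.5 days, at between 41.9% and 43.0%. The summed syndecan level was 52.0 and 58.3 FPKM in Cre+ and 36.6 and 38.2 FPKM in Cre- EDL libraries of 2.5 days. In SOL, Sdc4 took between 44.4% and 66.9%, and the genotypes overlapped at 2.5 and 8.5 days.

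**Figure D2:**
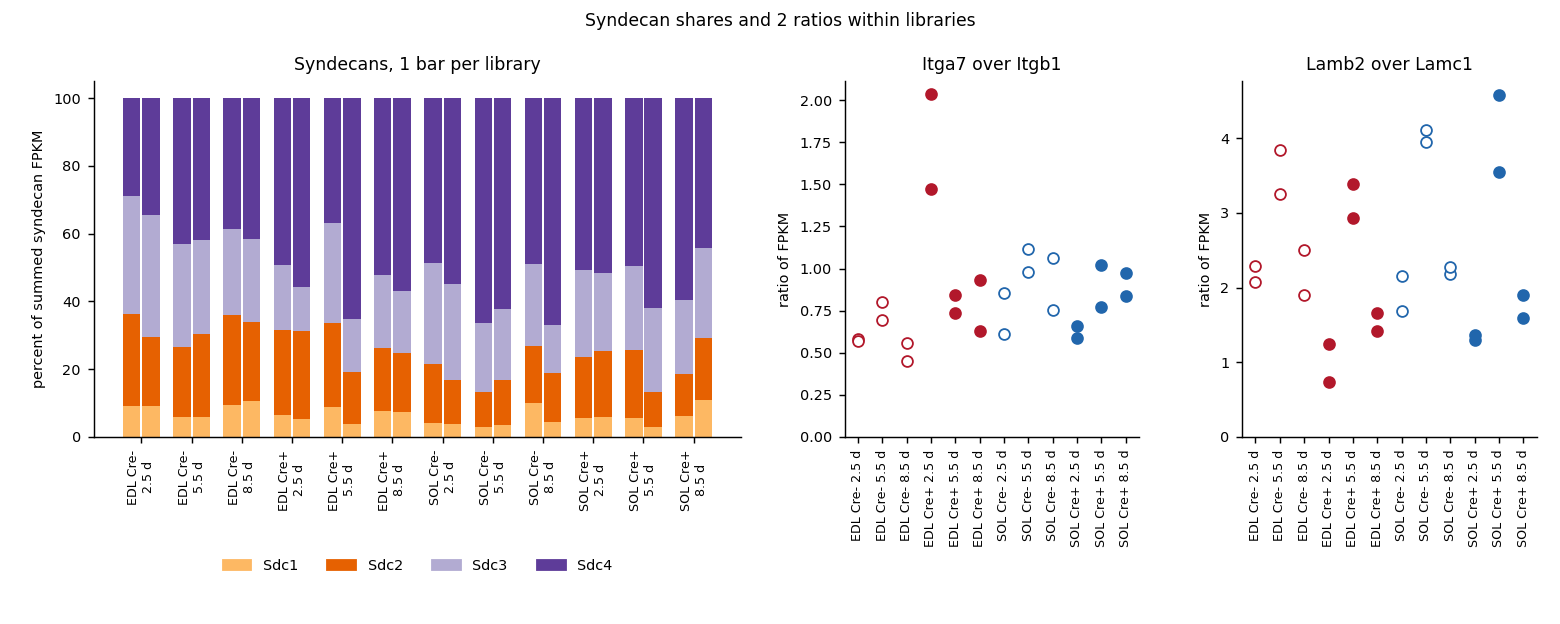
Left, percent of the summed FPKM of the 4 syndecans taken by each, with 1 bar per library. Middle and right, the ratio of Itga7 to Itgb1 and of Lamb2 to Lamc1 FPKM (linear axes), 1 point per library, EDL red, SOL blue, Cre- open, Cre+ filled. Sdc4 took 49.2% and 55.8% in EDL Cre+ libraries of 2.5 days against 28.8% and 34.4% in Cre- ones, and Lamb2 to Lamc1 was 2.93 or more in all 8 libraries of 5.5 days and 2.50 or less in the other 16.

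Of the laminin chains, Lamc1 rose on both days in EDL, Lama2 rose at 8.5 days and Lamb2 was not called. Lamc1, the gamma 1 chain shared by most laminins, was at 35.5 and 40.7 FPKM in Cre+ and 23.4 and 21.7 FPKM in Cre- muscle at 2.5 days (fold 1.68, edgeR adjusted p = 0.00197) and at 34.6 and 27.1 FPKM against 18.8 and 22.3 FPKM at 8.5 days (fold 1.52, edgeR adjusted p = 0.0124). The groups did not overlap, and the later call was lost without the first library of either genotype and in a fit of the 4 libraries alone. Lama2, the alpha 2 chain lost in a congenital muscular dystrophy, was at 12.1 and 7.78 FPKM in Cre+ and 7.99 and 6.13 FPKM in Cre- libraries at 2.5 days. These groups overlapped and the log2 fold change of 0.49 was not called (SE 0.21, edgeR adjusted p = 0.103), though it was called with library size alone as the scale (0.80) and without the second Cre+ library (0.78). At 8.5 days Lama2 was at 17.3 and 12.9 FPKM against 8.19 and 7.81 FPKM, a fold of 1.91 (edgeR adjusted p = 0.00981) that was not called without the first library of either genotype. Lamb2, the beta chain of the neuromuscular junction that is also found in muscle laminin, was at 44.3 and 29.7 FPKM in Cre+ and 53.6 and 45.0 FPKM in Cre- libraries at 2.5 days, a log2 fold change of -0.42 (SE 0.23, edgeR adjusted p = 0.194) that was called (-0.75) without the first Cre+ library. At 8.5 days its log2 fold change was 0.06. The ratio of Lamb2 to Lamc1 FPKM was 1.25 and 0.729 in EDL Cre+ against 2.29 and 2.07 in Cre- libraries of 2.5 days, and 1.42 and 1.66 against 1.90 and 2.50 at 8.5 days.

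Dag1, which makes both subunits of dystroglycan, gave the other laminin receptor of the fiber. It was at 69.9 and 51.4 FPKM in EDL Cre+ and 61.9 and 61.5 FPKM in Cre- muscle at 2.5 days, with the Cre- values between the Cre+ ones, and its log2 fold change was -0.03 (SE 0.16). At 8.5 days it was at 86.3 and 84.0 FPKM against 63.7 and 64.0 FPKM. The groups lay apart, but the log2 fold change of 0.44 (SE 0.16) was not called (edgeR adjusted p = 0.0782). It was called, at 0.62, with library size alone as the scale. The ratio of Itga7 to Dag1 FPKM was 2.03 and 3.56 in EDL Cre+ libraries of 2.5 days and 0.603 and 0.533 in Cre- ones.

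**Figure D3:**
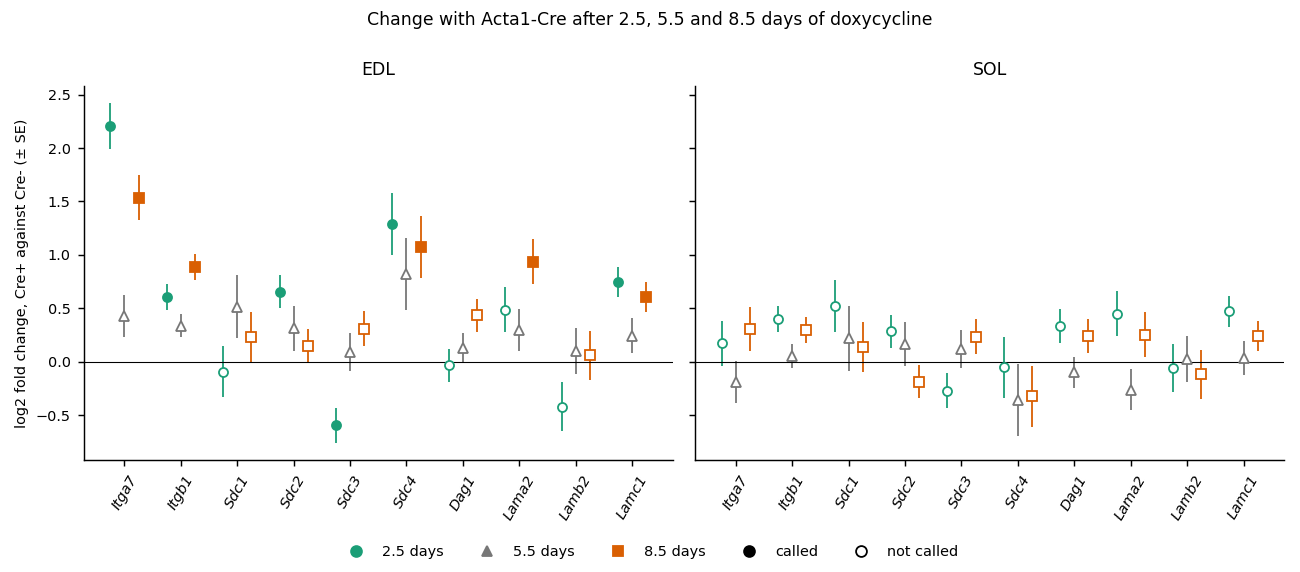
Log2 fold change of each gene between Cre+ and Cre- muscle, with its standard error as the bar, in EDL (left) and SOL (right) after 2.5 days (circle), 5.5 days (triangle) and 8.5 days (square) of Dox, filled where called. In EDL, 6 genes were called at 2.5 days and 5 at 8.5 days, led by Itga7 at 2.20 and 1.53, and none was called in SOL or at 5.5 days.

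The same comparison was made in SOL, where Pou5f1 was lower. None of the members was called by edgeR at 2.5 or 8.5 days, where 0.384% and 0.631% of all genes were. DESeq2 called 0 members as well, and 367 and 171 of all genes. An unadjusted p under 0.05 was reached by 2 members at 2.5 days and 1 at 8.5 days. Of the 15372 genes tested, 2053 and 1015 reached it. Itga7 was at 49.6 and 49.8 FPKM in Cre+ and 50.8 and 38.4 FPKM in Cre- SOL at 2.5 days, and at 72.8 and 65.6 FPKM against 63.8 and 48.7 FPKM at 8.5 days. Sdc4 was at 22.8 and 21.9 FPKM against 20.1 and 26.7 FPKM, and at 35.5 and 22.4 FPKM against 24.9 and 47.7 FPKM. Sdc4 thus overlapped between genotypes on both days, and its Cre- libraries of 8.5 days lay far from each other. Both Cre+ libraries lay above both Cre- libraries for 6 members at 2.5 days (Itgb1, Sdc1, Sdc2, Dag1, Lama2 and Lamc1), as for 24.5% of all genes, and for 6 at 8.5 days (Itga7, Itgb1, Sdc3, Dag1, Lama2 and Lamc1), as for 19.2% of all genes. Both Cre+ libraries lay below both Cre- libraries for 1 member at 2.5 days (Sdc3), as for 24.4% of all genes. At 8.5 days they did for 0 members and for 19.9% of all genes. In EDL at 2.5 days 5 members lay above (30.9% of all genes) and 2 below (Sdc3 and Lamb2, 34.2% of all genes). At 8.5 days 8 lay above (25% of all genes) and 0 below (28.7% of all genes). These shares depended on the scale. With FPKM by total count, the members above and the share of all genes were 7 and 43.8% in SOL at 2.5 days, 6 and 21.3% in SOL at 8.5 days, 8 and 52.1% in EDL at 2.5 days, and 9 and 40.3% in EDL at 8.5 days. The median log2 fold change of the 10 members in SOL was 0.31 and 0.24, beside 0.02 and -0.01 over all genes.

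Whether the 2 muscles responded differently was tested as the change in EDL minus the change in SOL. At 2.5 days 1 member was called, Itga7, whose log2 change was larger in EDL by 2.03 (SE 0.30, edgeR adjusted p = 0.00467), and 4.25% of all genes were called. This call held in every fit that left out 1 library. For Sdc4 the difference was 1.34 (SE 0.41, edgeR adjusted p = 0.0803). With the EDL and SOL libraries of the same number, genotype and day taken as a pair, it was 1.32 and passed (edgeR adjusted p = 0.0234). At 8.5 days 0 members were called and 0.592% of all genes were. Of the members 4 had an unadjusted p under 0.05, as had 1729 of the 15372 genes tested. DESeq2 called 3 members (Itga7, Itgb1 and Sdc4) and 345 of all genes, where edgeR called 91. Itga7 differed by 1.23 (SE 0.29, edgeR adjusted p = 0.107), and by 1.19 with the pairing (edgeR adjusted p = 0.0459). Without the second EDL Cre+ library it was called (edgeR adjusted p = 0.0453). Itgb1 differed by 0.59 (SE 0.17, edgeR adjusted p = 0.198) and Sdc4 by 1.39 (SE 0.41, edgeR adjusted p = 0.196).

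The Cre- mice showed how the members differ between fast and slow muscle without OSKM. At 2.5 days 2 members were called, where 16% of all genes were: Sdc1 was higher in EDL (3.36 and 3.46 FPKM against 1.68 and 1.86 FPKM in SOL, log2 difference 0.98, edgeR adjusted p = 0.0150) and Sdc4 was lower (10.5 and 13.2 FPKM against 20.1 and 26.7 FPKM, log2 difference -0.96, edgeR adjusted p = 0.0378). At 8.5 days 4 members were called, all lower in EDL, where 18.2% of all genes were called. They were Sdc4 (log2 difference -1.20, edgeR adjusted p = 0.0117), Lama2 (-0.84, edgeR adjusted p = 0.0141), Itga7 (-0.77, edgeR adjusted p = 0.0208) and Lamc1 (-0.58, edgeR adjusted p = 0.0121). Lamb2 was at 35.8 and 55.7 FPKM in EDL and 71.2 and 66.8 FPKM in SOL, a log2 difference of -0.58 (edgeR adjusted p = 0.0912) that passed with the pairing of muscles (-0.61, edgeR adjusted p = 0.0331). Both EDL libraries lay below both SOL libraries on both days for Itga7, Sdc4, Dag1 and Lama2, and of these Sdc4 was called on both. In all, 4 members lay below at 2.5 days (31% of all genes) and 6 at 8.5 days (30% of all genes). Above lay 2 members at 2.5 days (30.3% of all genes) and 0 at 8.5 days (25.9% of all genes). Without any 1 of the 4 libraries of 2.5 days, the log2 difference lay between 0.90 and 1.06 for Sdc1. For Sdc4 it lay between -1.15 and -0.73, and neither gene was called in these fits. At 8.5 days member calls were also lost in each such fit. In most of the fits of both days fewer of all genes were called as well.

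The Sdc4 level of EDL Cre+ muscle at 2.5 and 8.5 days, 25.6 to 33.3 FPKM, lay inside the range of the 6 Cre- SOL libraries, 20.1 to 47.7 FPKM. The top of that range was set by the higher Cre- SOL library of 8.5 days. The next highest was at 27.9 FPKM, and all these EDL Cre+ libraries but the lowest lay above it. Itga7 in EDL Cre+ muscle, 74.0 to 183 FPKM on those days, lay above the highest Cre- SOL library, 63.8 FPKM. These are levels side by side and were not tested.

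In the 5.5 day EDL libraries 0 members were called by edgeR (0.304% of all genes) and by DESeq2 (172 of all genes). Of the members 3 had an unadjusted p under 0.05, as had 1307 of the 15478 genes tested. Both Cre+ libraries lay above both Cre- libraries for 8 members, as for 16.3% of all genes, and with FPKM by total count for 9 members, as for 34.8% of all genes. Both lay below for 0 members and for 21.1% of all genes. Itga7 was at 48.5 and 58.2 FPKM against 38.9 and 40.4 FPKM (log2 fold change 0.43, SE 0.20, edgeR adjusted p = 0.560). Sdc4 was at 12.9 and 29.0 FPKM against 12.1 and 11.6 FPKM, so that 1 Cre+ library lay beside the Cre- level and the other near the Cre+ level of 2.5 days. The second library also held the higher Pou5f1 level, 29.4 FPKM against 1.07 FPKM. Without it, the log2 fold change of Sdc4 fell from 0.82 to 0.13. In SOL at 5.5 days 0 members and 0% of all genes were called by edgeR and 0 members by DESeq2. An unadjusted p under 0.05 was reached by 0 members and by 597 of the 15478 genes tested. There 0 members lay above and 2 lay below (Sdc4 and Lama2), each as for 18% of all genes.

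**Figure D4:**
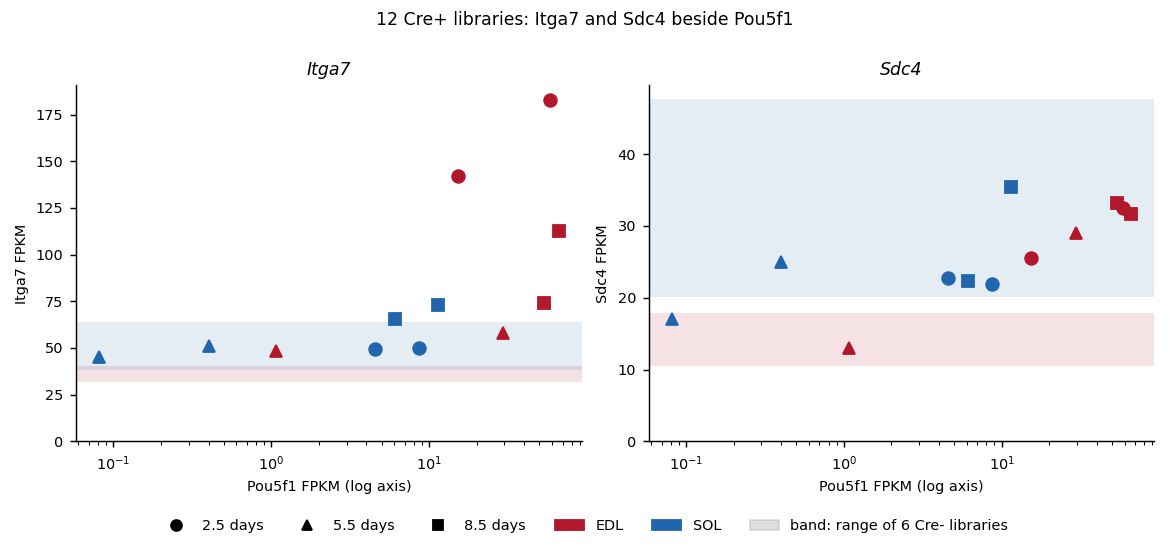
FPKM of Itga7 (left) and Sdc4 (right) on linear axes against Pou5f1 FPKM on a log axis in the 12 Cre+ libraries, EDL red and SOL blue, with a symbol for the days of Dox and a band for the range of the 6 Cre- libraries of each muscle. Among EDL libraries, the one with Pou5f1 at 1.07 FPKM had Sdc4 at 12.9 FPKM, inside the Cre- band, and the other 5 had Sdc4 between 25.6 and 33.3 FPKM. Itga7 was at 58.2 FPKM in the second EDL library of 5.5 days. It was at 142 FPKM in the first of 2.5 days, which held less Pou5f1.

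For several members the 5.5 day libraries also stood apart in Cre- mice. In EDL, Lamc1 was at 15.2 and 12.8 FPKM at 5.5 days and between 18.8 and 23.4 FPKM in the 4 Cre- libraries of the other days. Sdc1 was at 1.67 and 1.63 FPKM against 3.24 to 4.53 FPKM, and Sdc2 at 5.79 and 6.74 FPKM against 7.79 to 10.1 FPKM. Itga7, at 38.9 and 40.4 FPKM, was above the 31.5 to 37.4 FPKM of the other days. Itgb1, Sdc3 and Lama2 lay below the other days in EDL, and Dag1, Lamb2 and Sdc4 overlapped them. In SOL, Itga7 was at 49.2 and 60.1 FPKM at 5.5 days, inside the 38.4 to 63.8 FPKM of the other days. The share of all genes that stood apart in this way was not counted. The ratio of Lamb2 to Lamc1 was between 2.93 and 4.57 in the 8 libraries of 5.5 days, whatever the genotype or muscle, and between 0.729 and 2.50 in the other 16. The summed level of 6 fibroblast markers, among them Pdgfra, was 412 and 480 FPKM in EDL Cre- libraries of 5.5 days and 1073 to 1208 FPKM in those of the other days, and its part in these levels was not tested.

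Markers of other cell types were read beside the members. Of 6 satellite cell markers, 0 were called in EDL at 2.5 or 8.5 days, and their summed level was 24 and 15.4 FPKM in Cre+ against 21.4 and 22.3 FPKM in Cre- libraries of 2.5 days. Pax7, the defining gene of satellite cells, was between 0.663 and 1.49 FPKM in every EDL library. Of 6 fibroblast markers, 0 were called on either day. Of 6 endothelial markers 4 fell in EDL at 2.5 days (Pecam1, Cdh5, Tie1 and Emcn) and of 6 mural markers 3 (Pdgfrb, Notch3 and Abcc9), while 0 of either list were called at 8.5 days. Their part in the members' values was not tested.

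The genes that work with the members were read from 6 lists. Of the 18 other integrin subunits, 2 rose (Itgav and Itgb5) and 1 fell (Itga6) in EDL at 2.5 days, and 3 rose (Itga9, Itgav and Itgb5) and 1 fell (Itgb8) at 8.5 days. Itgav and Itgb5 pair as a receptor for vitronectin. Itgav rose by 1.06 and 0.60, and at 8.5 days it was 0.38 and not called without the second Cre- library, nor was it called without either Cre+ library. Itgb5 stood at 44.5 and 53.8 FPKM in Cre+ against 31.9 and 30.7 FPKM in Cre- muscle at 2.5 days (log2 fold change 0.64, SE 0.12, edgeR adjusted p = 0.00183) and rose by 0.92 at 8.5 days. Its change was larger in EDL than in SOL by 0.96 at 2.5 days and 1.00 at 8.5 days (edgeR adjusted p = 0.0106 and 0.0265). The median log2 fold change of the list was -0.34 at 2.5 days and -0.03 at 8.5 days.

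Of the 8 other laminin chains, 7 were tested, and 1 rose and 1 fell in EDL at 2.5 days. The median log2 fold change of the list was 0.19 at that time. Lama5, found in vessel basement membranes, fell by 1.26 on the log2 scale at 2.5 days and by 0.92 at 8.5 days (SE 0.20 for each, edgeR adjusted p = 6.17e-04 and 0.00769), the later call being lost without the first Cre- or the second Cre+ library. The chain that rose at 2.5 days was Lama3, an epithelial laminin chain, which was named after its values were seen. It was counted 9276 and 35115 times in EDL Cre+ libraries of 2.5 days and 526 and 122 times in the Cre- ones (log2 fold change 5.74, SE 0.85, edgeR adjusted p = 4.20e-04). At 8.5 days Lama3 was counted 806 and 408 times in Cre+ and 398 and 223 times in Cre- EDL libraries (log2 fold change 0.35, SE 0.73, edgeR adjusted p = 0.801). In FPKM, Lama3 overlapped between genotypes at 8.5 days. It was at 16.5 and 64.0 in the EDL Cre+ libraries of 2.5 days, above Lama2 (12.1 and 7.78) in both, and at 1.21 or less in the Cre- ones.

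Dystroglycan is part of a larger complex, and the sarcoglycan Sgcb of that complex fell in EDL on both days. Of 14 genes of the dystrophin-associated complex, 2 rose and 3 fell at 2.5 days and 2 rose and 4 fell at 8.5 days. The falls on both days were Dmd, the dystrophin gene (-0.75 and -0.81 on the log2 scale), Sgcb (-0.96 and -1.04) and the dystrobrevin Dtna (-1.06 and -0.70). The call of Dmd at 2.5 days was lost when any 1 of the 4 libraries was left out and with library size alone (-0.42). At 8.5 days its value was -0.31 and not called without the first Cre- library. That call was also lost without either Cre+ library, with library size alone (-0.64) and in a fit of the 4 libraries alone (-0.80). Dtna was not called at 8.5 days without the first library of either genotype. The list medians were 0.05 and -0.02, near those of all genes.

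Inside the fiber, of 18 adaptors of integrin adhesions 1 rose (Tns1) and 3 fell (Itgb1bp2, Parvb and Vcl) at 2.5 days, and 1 rose and 1 fell at 8.5 days. Itgb1bp2, the muscle protein melusin that binds the Itgb1 tail, went from a mean of 217 ± 44.0 FPKM (SD, n = 2) in Cre- to 61.4 ± 14.7 FPKM in Cre+ EDL at 2.5 days (log2 fold change -1.83, SE 0.22, edgeR adjusted p = 1.31e-04) and changed by -1.09 at 8.5 days. The latter was not called without the first Cre+ library (-0.81). Tns1, a tensin that links integrins to actin, rose by 1.11 and 0.81, but was 0.53 and not called at 2.5 days without the second Cre+ library, and its call at 8.5 days was lost when any 1 of the 4 libraries was left out. Of 10 other basement membrane components 1 fell at 2.5 days (Agrn, the agrin of the neuromuscular junction) and 0 were called at 8.5 days. Of 7 tested genes among the glypicans and syndecan partners, 1 rose at 2.5 days (Gpc4) and 2 at 8.5 days (Gpc1 and Gpc4), and Gpc4, a glypican, rose by 0.66 and 0.90.

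Over the 24 libraries, the genes whose log2 CPM followed that of Itga7 most closely, among 11308 compared, were Farp2 (Pearson r = 0.965), Tbc1d22a (r = 0.945) and Ghdc (r = 0.943). For Sdc4 they were Pwwp2b (r = 0.852), Sh2d4a (r = 0.845) and Slc7a5 (r = 0.840). Among the members, Itga7 was closest to Itgb1 (r = 0.663) and least like Lamb2 (r = -0.181). These values describe libraries that share muscle, genotype and day. Farp2 was at 9.43 ± 2.14 FPKM (SD, n = 2) in EDL Cre+ muscle of 2.5 days and 2.54 ± 0.0625 FPKM in Cre- muscle.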

How the data were processed

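Whole-muscle mRNA was sequenced in 24 libraries. The authors aligned reads to mm10 with STAR 2.5.3a and deposited raw counts per gene made with HOMER. Counts were tested with edgeR 4.0.16 (TMM scaling, filterByExpr with a minimum count of 10, glmQLFTest): one fit held the 16 libraries of 2.5 and 8.5 days (15372 genes), and the 5.5 day values came from a fit of all 24 (15478 genes). Calls needed a log2 fold change beyond 0.5 in size and an adjusted p below 0.05. FPKM were computed as counts over exon length and TMM-scaled library size. With 2 libraries a group, an exact permutation test cannot go below p = 0.333. Scripts were tested on simulated data. The labels do not say that EDL and SOL of 1 number share a mouse, but their deviations from the group mean correlated in every group (0.173 to 0.445), so they were paired in an alternative fit. Cre+ and Cre- libraries of 1 number did not pair (-0.169 to 0.0578).

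The members, the lists and the tests were chosen with earlier results of these data known. All 10 members were named, and of each related list up to 3 genes called on both days in EDL in 1 direction that averaged 1 FPKM or more, largest mean change first. Other called genes of the lists were named after their values were seen. Alternatives were DESeq2 1.42.0, its size factors, library size alone, other filters, replicate blocks, other sets of libraries, FPKM by total count and leaving out each library. Some related genes are not reported here.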

Additional observations from a re-analysis of the deposited data

Results flagged for a closer look

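Itga7 was flagged because its change with OSKM differed between the muscles by a test of the difference itself: the log2 fold change at 2.5 days was larger in EDL than in SOL by 2.03 (edgeR adjusted p = 0.00467). Both EDL Cre+ libraries lay above both Cre- ones, while the SOL genotypes overlapped. Pou5f1 was also higher in EDL, at 15.3 and 58.5 FPKM in EDL Cre+ libraries against 4.54 and 8.63 FPKM in SOL Cre+ libraries of that day, and its part in the difference was not tested. With 2 libraries a group, single outlying libraries could not be tested.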

How the results depend on the processing

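For the fold changes of the members and the named related genes, leaving out 1 library kept direction and side of the threshold in 292 of 360 values, lost a call in 54, gained 1 in 5 and turned the direction in 9, and the other settings did so in 755, 13, 13 and 5 of 786. In both counts a value that was called in neither fit was among those kept. The numbers of lost calls are therefore not shares of the values called at the start, which are not given here. Some comparisons entered only part of the members. FPKM by total count moved 46 of 120 group means beyond 1 SD.

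Members called without 1 library ranged from 4 to 7 in EDL at 2.5 days, from 2 to 5 in EDL at 8.5 days, were 0 in each fit for EDL against SOL at 2.5 days, and ranged from 0 to 3 at 8.5 days. They ranged from 0 to 1 for the difference between muscles at 8.5 days and for the change between days. The number called over all genes moved as well in the fits without 1 library, so these ranges do not describe the members alone. The difference between muscles at 2.5 days gave 2 members instead of 1 with no filter on low counts, with DESeq2 and with the replicate block pairing EDL and SOL, and at 8.5 days 3 instead of 0 with DESeq2 and 1 with that block. Over all genes, the same settings in this order called 778, 1459 and 1019 instead of 654 at 2.5 days. At 8.5 days DESeq2 called 345 and the block 175 of all genes, instead of 91. The change between days gave 1 member instead of 0 with DESeq2, which called 143 of all genes there instead of 0. With library size alone, Sdc1 (0.236) and Dag1 (0.293) in EDL at 2.5 days and Sdc4 (0.0969) and Lamb2 (0.0997) in SOL at 2.5 days turned positive, and Dag1 in EDL at 2.5 days also did with DESeq2 on 4 libraries (0.0094). Directions that turned without 1 library belonged to members not called, with ranges of -0.279 to 0.184 (Dag1, EDL, 2.5 days), -0.218 to 0.412 (Lamb2, EDL, 8.5 days), -0.0097 to 0.384 (Itga7, SOL, 2.5 days), -0.247 to 0.177 (Sdc4, SOL, 2.5 days), -0.249 to 0.167 (Lamb2, SOL, 2.5 days), -0.183 to 0.539 (Sdc1, SOL, 8.5 days) and -0.713 to 0.227 (Sdc4, SOL, 8.5 days). The cause was not tested. Over all genes, fits of the 4 libraries alone called 2434 instead of 3684 in EDL at 2.5 days and 1021 instead of 2172 at 8.5 days. A replicate block of the same number within a day changed 1 member call, Lamb2 for EDL against SOL at 8.5 days (-0.60, edgeR adjusted p = 0.0394), and in EDL at 8.5 days the calls of Dmd and Tns1 were lost with it. For EDL against SOL in Cre- mice at 8.5 days, Sdc4 was -0.63 without the second SOL library and -1.01 without the first EDL library, and was called in neither fit. Lists of related genes also moved: with library size alone, 4 other laminin chains and 7 adhesion adaptors were called in EDL at 2.5 days, instead of 2 and 4.

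With 2 libraries a group, depth was not the limit for these genes, but the spread between libraries was estimated from few of them, and nothing here separates cell number from RNA per cell.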
